A study of Mus musculus with 21 samples.

Results

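Forelimb buds (FBs) taken fresh from mouse embryos of 2 stages, E10.5 and E12.5, were compared gene by gene, to see what changes in the limb over this stretch of development *in utero*. The comparison used the 3 arrays of non-cultured E12.5 FBs and the 3 arrays of non-cultured E10.5 FBs, 6 of the 21 arrays of the series, and all 14860 genes that had a transcript cluster of their own on the array, of 23332 clusters in all. Embryos were wild-type Swiss mice, with no transgene and no treatment. In E10.5 embryos the FB is a small paddle of mesenchyme under an ectoderm rim, and in E12.5 embryos it is a plate with digit rays. The 15 other arrays came from FBs of embryos kept in culture, and entered only the estimate of each gene's spread. RNA of each sample had been hybridized to 1 Affymetrix Mouse Exon array. The samples are labelled as biological replicates 1 to 3 of each stage, and the number of embryos behind a sample is not given in the sources used here.

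A limb bud grows out under the control of its apical ectodermal ridge, a strip of ectoderm at the tip that secretes Fgf proteins, and of a posterior zone that secretes Sonic hedgehog. Hox genes, Meis genes and other transcription factors divide the mesenchyme into proximal and distal and into anterior and posterior parts. Mesenchyme then condenses into cartilage, joints, tendons and connective tissue, while muscle precursors that migrate in from the somites, blood vessels, nerves and immune cells complete the limb.

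Values are log2 expression values per gene, so that a difference of 1 is a doubling, and a positive difference means a higher value at E12.5. A gene counts as higher or lower where its adjusted p (limma fitted to all genes, Benjamini-Hochberg) was under 0.05. Of 14860 genes, 4023 (27.1%) passed, of which 2925 (19.7%) were higher and 1098 (7.39%) lower at E12.5. The 3 arrays of each stage did not overlap in 7024 genes (47.3%), with every E12.5 value above every E10.5 value in 30.2% of genes and below in 17.0%. The median difference of all genes was 0.03, and the middle 98% lay between -1.33 and 2.05, with a median standard error (SE) of 0.15. The count of lower genes was 583 without E12.5 replicate 2 and 722 without E10.5 replicate 2. Among genes that passed, 728 were at least 2-fold higher and 215 at least 2-fold lower, and 165 and 64 differed by at least 4-fold. The split into higher and lower depends on the scaling of the arrays. Median values were 6.22 to 6.33 on the E10.5 arrays and 6.47 to 6.54 on the E12.5 arrays. With the arrays shifted to a common median, which moved the median difference of all genes from 0.03 to -0.20, 1549 genes were higher and 3367 lower. After quantile normalization 2289 were higher and 2498 lower, and after cyclic loess 2459 and 2180. Of 41 gene lists described below, 30 kept the sign of their median in these scalings and without the E10.5 arrays named next, and the other 11 are pointed out where they come up. Since whole FBs were measured, more cells of a type and more RNA per cell cannot be told apart.

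**Figure D1:**
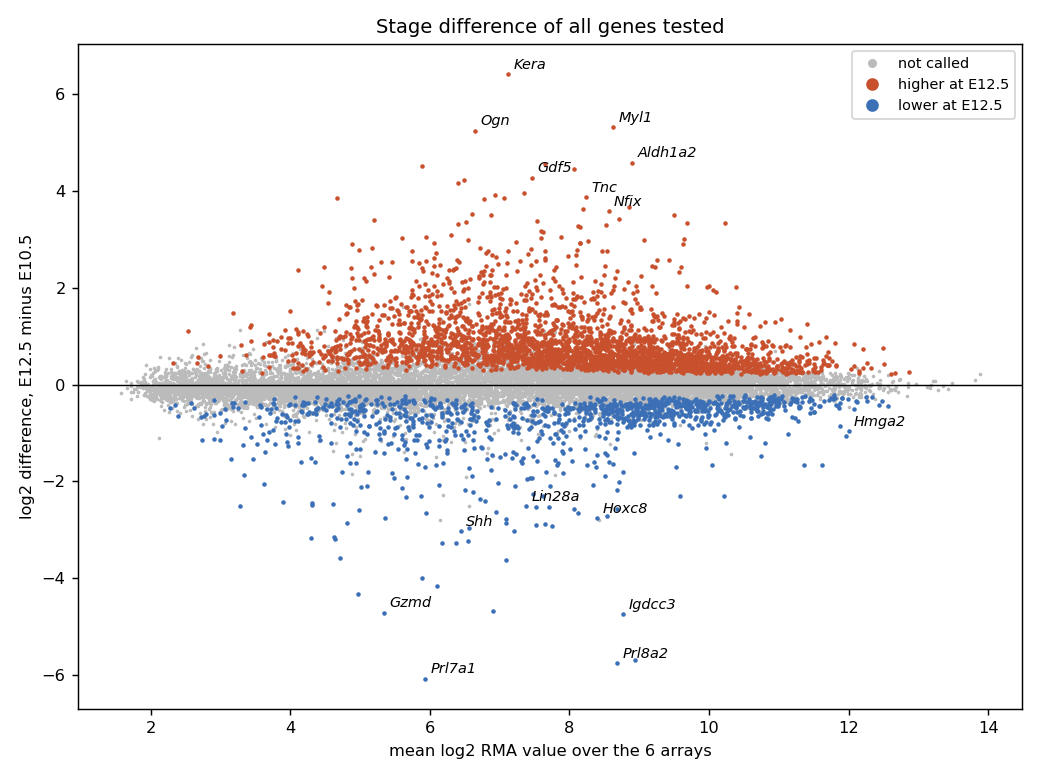
Each point is 1 of the 14860 genes tested. The horizontal axis gives the mean log2 value over the 6 arrays and the vertical axis the log2 difference of E12.5 minus E10.5, with the 2925 genes higher at E12.5 in red, the 1098 lower genes in blue and all others in grey. The largest rise is that of *Kera* (6.41) and the largest fall that of *Prl7a1* (-6.07).

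The E10.5 arrays were not alike. Replicates 2 and 3 correlated at 0.996 with each other and at 0.982 to 0.983 with replicate 1, whereas the E12.5 arrays correlated at 0.993 to 0.995. A list of 11 measured placenta and decidua markers had a mean of 6.57 and 6.43 in E10.5 replicates 2 and 3, 4.88 in replicate 1 and 4.20 to 4.68 at E12.5. *Prl8a2*, a prolactin-like hormone of the decidua, read 9.46, 12.67 and 12.56 at E10.5 and 7.72, 3.94 and 5.77 at E12.5. Markers of liver and yolk sac (15 measured, none of which passed the test) had means of 5.26, 7.20 and 7.20 at E10.5 and of 5.60, 5.08 and 8.43 at E12.5, so E12.5 replicate 3 was high too. The median difference of this list was -0.29, and 1.18 without E10.5 replicates 2 and 3. In that array *Alb*, serum albumin, read 9.67, against 4.25 to 5.33 on the 5 others. Genes of the Y chromosome split the E12.5 samples. *Kdm5d*, a Y-linked histone demethylase, read 8.28, 6.87 and 8.25 at E10.5 and 8.56, 3.57 and 3.78 at E12.5. E12.5 replicates 2 and 3 therefore held little Y-linked RNA, which all E10.5 samples held. Results that fell, and some that rose, were also computed without E10.5 replicates 2 and 3. With E10.5 replicate 1 alone, a call can be lost even where the difference does not shrink. Then 2017 genes were higher and 608 lower, and 417 of the lower genes were among the 1098.

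**Figure D2:**
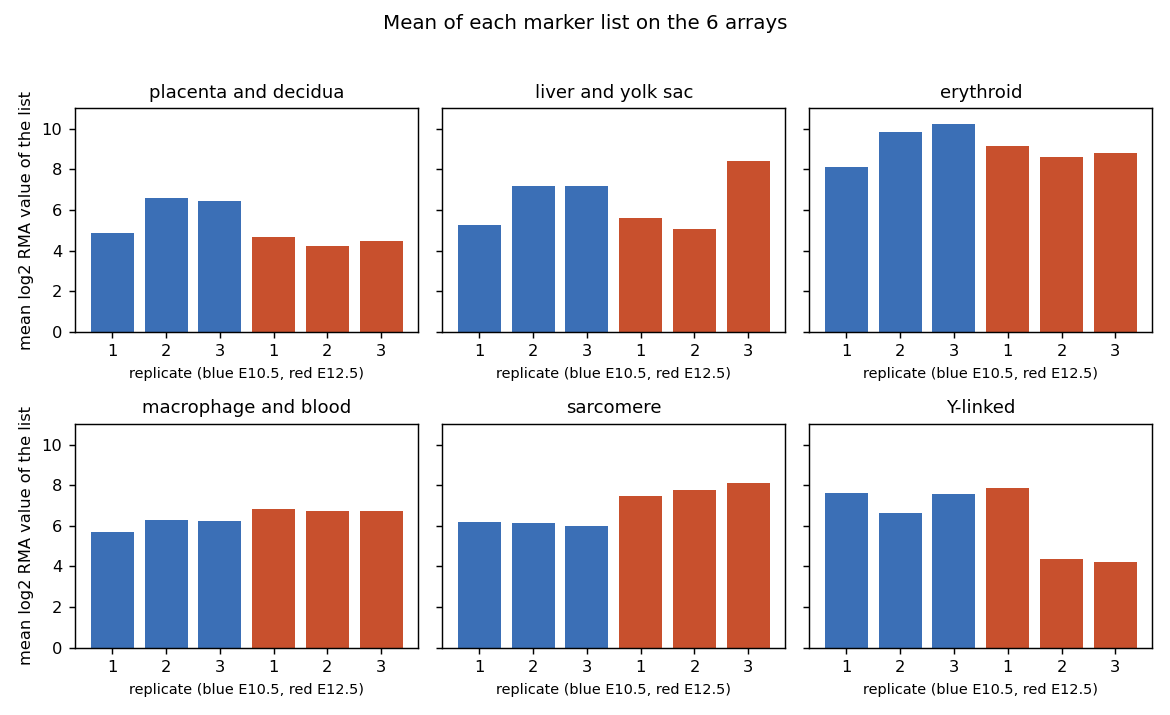
Bars give the mean log2 value of each marker list on each of the 6 arrays, with E10.5 replicates 1 to 3 in blue and E12.5 replicates 1 to 3 in red. The placenta and decidua mean is high in E10.5 replicates 2 and 3 (6.57 and 6.43), the liver and yolk sac mean in these and in E12.5 replicate 3 (8.43), and the Y-linked mean is low in E12.5 replicates 2 and 3 (4.37 and 4.20).

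Most genes of tendon and connective tissue rose in E12.5 FBs, and the largest rise of a single gene was among them. Of 24 measured, 19 rose and 1 fell, with a median difference of 1.43. *Kera* (gene 16545, chromosome 10 from 97606962 to 97613688 in GRCm38.p6) encodes keratocan, a small leucine-rich proteoglycan of collagen fibrils. It read 4.39, 3.55 and 3.81 in the E10.5 replicates and 10.14, 10.28 and 10.56 in the E12.5 replicates. Its rise of 6.41 (SE 0.46, adjusted p = 2.15e-08) is 85.2-fold. *Ogn* (gene 18295, chromosome 13 from 49608015 to 49624501), osteoglycin, a proteoglycan of the same family, went from 4.09, 4.03 and 3.97 to 8.91, 9.16 and 9.73. The stages lay far apart in both genes. Other members of the family lie beside them. *Lum*, lumican, on chromosome 10 from 97565501 to 97572703, rose by 3.66 (SE 0.30). *Aspn*, asporin, on chromosome 13 from 49544443 to 49567565, rose by 3.86 (SE 0.19). *Dcn*, decorin, next to *Lum*, read 5.78, 9.18 and 9.06 at E10.5 and 11.10, 11.34 and 11.60 at E12.5, so that its E10.5 values followed the placenta and decidua markers. It rose by 3.34 (SE 0.64), by 2.22 without E10.5 replicate 1 and by 5.56 without replicates 2 and 3, and passed each time. The part of such tissue in its value was not tested. *Tnc*, tenascin C, a matrix glycoprotein of tendon and perichondrium, went from 6.53, 6.25 and 6.13 to 10.19, 9.90 and 10.43. *Six2*, a homeodomain factor, rose by 2.20 (SE 0.17), *Postn*, periostin, by 2.11 (SE 0.28), and *Tgfbi*, a Tgf-beta-induced matrix protein, by 2.01 (SE 0.12). *Thbs4*, a thrombospondin of tendon, rose by 1.73 (SE 0.34, adjusted p = 0.00117). The 1 member that fell, *Htra3*, a secreted protease, read 6.24 in E10.5 replicate 1 and 9.61 and 9.25 in replicates 2 and 3, against 6.33 to 6.54 at E12.5, so the stages overlapped. It no longer passed without E10.5 replicate 2 (-1.32, adjusted p = 0.168) or 3 (-1.50, adjusted p = 0.135), nor without any 1 of the E12.5 replicates (adjusted p = 0.0728, 0.0653 and 0.0764). Without E10.5 replicate 1 it fell by 3.01 (adjusted p = 8.91e-05), and without replicates 2 and 3 the difference was 0.18.

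Many fibril-associated and microfibrillar proteins of the matrix rose as well. Of 30 collagen genes, 14 rose and 5 fell (median 0.30, and 0.07 with a common median, where 12 rose and 10 fell). Chains of collagen VI rose, *Col6a1* by 1.90 (SE 0.18), *Col6a2* by 1.34 (SE 0.16) and *Col6a3* by 1.32 (SE 0.21). *Col12a1* and *Col14a1*, which bind to the surface of collagen I fibrils, rose by 1.76 (SE 0.20) and 1.98 (SE 0.19). *Col1a1*, a chain of collagen I itself, rose by 0.94 (SE 0.20). *Col4a1* and *Col4a2*, the chains of basement membranes, fell by 0.67 (SE 0.14) and 0.83 (SE 0.18). Without E10.5 replicates 2 and 3 these differences were -0.44 and -0.55 and did not pass (adjusted p = 0.142 and 0.154). *Col18a1*, another basement membrane collagen, fell by 0.84 (SE 0.19). Of 24 genes of elastic fibres and matrix glycoproteins 13 rose and 1 fell (median 0.54). *Efemp1*, a fibulin, read 7.30, 6.83 and 6.45 at E10.5 and 9.23, 9.52 and 9.20 at E12.5. *Loxl1*, which cross-links elastin, rose by 1.90 (SE 0.16), *Fbln5*, another fibulin, by 1.40 (SE 0.15) and *Eln*, elastin, by 0.83 (SE 0.14). The lower one, *Mfap5*, read 5.92, 9.04 and 8.73 at E10.5 and 5.39 to 5.71 at E12.5, again in the order of the placenta and decidua markers. Without E10.5 replicate 2 alone, or replicate 3 alone, it no longer passed (differences of -1.79 and -1.94, adjusted p = 0.0807 and 0.0679).

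Most cartilage regulators and cartilage matrix genes were higher at E12.5. Of 17 measured cartilage regulators 13 rose and none fell (median 1.22). *Sox9*, the transcription factor that starts chondrogenesis, was already high at E10.5 (9.60, 9.89 and 9.64) and ranged from 10.49 to 10.70 at E12.5, a rise of 0.86 (SE 0.15, adjusted p = 0.000422). Its partners *Sox5* and *Sox6*, which it needs to switch on matrix genes, rose by 1.34 (SE 0.22) and 1.64 (SE 0.23). The stages did not overlap in any of these 3, as in 47.3% of all genes. *Nfia* and *Nfib*, nuclear factor I proteins, both rose by 2.43 (SE 0.13), to 10.35, 10.52 and 10.46 for *Nfia*. *Foxc1*, a forkhead factor of the skeletal mesenchyme, rose by 1.56 (SE 0.18). Of 23 cartilage matrix genes 13 rose and 1 fell (median 0.83). *Cnmd*, chondromodulin, a protein of avascular cartilage, read 4.32, 4.92 and 5.32 at E10.5 and 8.81, 8.04 and 8.24 at E12.5. *Papss2*, which makes the sulphate donor for proteoglycans, rose by 3.43 (SE 0.40), *Chad*, chondroadherin, by 2.71 (SE 0.28), and *Matn4*, a matrilin, by 2.10 (SE 0.28). *Col9a1*, a chain of collagen IX, went from 7.46, 7.53 and 7.99 to 9.39, 9.18 and 8.83. *Acan*, the aggrecan core protein, rose by 1.33 (SE 0.23). The 1 member that fell, *Hapln1*, the link protein that binds aggrecan to hyaluronan, read 8.13, 8.20 and 8.0 at E10.5 and 7.19, 6.85 and 7.01 at E12.5. Of 13 genes of bone differentiation 4 rose and 2 fell (median 0.24, -0.01 with a common median of the tested genes). *Phex*, an endopeptidase of bone cells, rose by 2.75 (SE 0.20). *Alpl*, the alkaline phosphatase of mineralizing tissue, fell by 1.56 (SE 0.27) and *Smpd3*, a sphingomyelinase, by 1.61 (SE 0.38).

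Most joint genes rose as well. Of 15 measured 10 rose and none fell (median 0.84). *Gdf5* (gene 14563), the Bmp-type ligand that marks the interzone where a joint will form, read 5.12, 5.34 and 5.52 at E10.5 and 9.91, 9.70 and 9.18 at E12.5, a rise of 4.27 (SE 0.21, adjusted p = 2.36e-10). *Sulf1*, a heparan sulphatase, rose by 2.33 (SE 0.11), *Erg*, an Ets factor of joint and vessel, by 1.60 (SE 0.15), *Osr1*, a zinc finger factor of connective tissue and joint, by 1.13 (SE 0.16) and *Gdf6*, a relative of *Gdf5*, by 1.09 (SE 0.18). *Prg4*, the lubricin of mature joints, read 3.13 to 3.28 at E10.5 and 3.27 to 3.32 at E12.5, near the bottom of the scale at both stages.

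Muscle genes were the other large group that rose. E-box sequences in the promoters of muscle genes are bound by the MyoD family, and the core CAGCTG is a known form of the E-box in this tissue. Promoters of 4 genes that rose are printed to show these letters. Where RefSeq (GRCm38.p6) gives a gene several promoters, the one with the lowest coordinate was taken. The stretch of *Myl1* lies inside the gene, whose 5′ end is at 66947932. Promoters are given as the 250 bases before the start used, 5′ to 3′, with CAGCTG in capitals.
They lie at *Myl1* at chr1:66945057-66945306 (minus strand), *Acta1* at chr8:123894776-123895025 (minus strand), *Chrna1* at chr2:73580339-73580588 (minus strand), *Chrng* at chr1:87205561-87205810 (plus strand).
*Myl1*: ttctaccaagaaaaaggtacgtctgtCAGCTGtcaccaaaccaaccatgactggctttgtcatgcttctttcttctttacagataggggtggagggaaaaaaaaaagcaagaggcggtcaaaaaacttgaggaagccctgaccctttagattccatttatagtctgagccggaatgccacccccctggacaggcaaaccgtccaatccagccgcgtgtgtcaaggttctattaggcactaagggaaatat
*Acta1*: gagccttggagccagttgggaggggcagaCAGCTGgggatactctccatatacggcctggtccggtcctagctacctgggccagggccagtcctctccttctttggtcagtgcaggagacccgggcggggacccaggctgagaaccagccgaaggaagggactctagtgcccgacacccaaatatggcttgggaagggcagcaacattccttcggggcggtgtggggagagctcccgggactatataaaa
*Chrna1*: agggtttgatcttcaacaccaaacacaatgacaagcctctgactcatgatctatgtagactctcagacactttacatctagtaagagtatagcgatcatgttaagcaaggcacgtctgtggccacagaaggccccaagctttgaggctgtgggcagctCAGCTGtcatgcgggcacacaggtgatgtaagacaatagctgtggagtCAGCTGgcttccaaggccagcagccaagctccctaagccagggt
*Chrng*: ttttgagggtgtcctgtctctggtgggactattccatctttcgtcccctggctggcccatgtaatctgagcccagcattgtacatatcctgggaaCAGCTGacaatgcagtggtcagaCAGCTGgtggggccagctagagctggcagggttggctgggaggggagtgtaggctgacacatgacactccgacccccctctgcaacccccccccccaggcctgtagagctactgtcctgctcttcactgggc
CAGCTG reads the same on both strands. It was present in 16 of 37 muscle genes that were higher at E12.5 and have a promoter in the table (43.2%), over a window of 300 bases from 250 before to 50 after the start. The share was 38.5% (5 of 13) in muscle genes that were not higher, 18.5% in all tested genes and 16.3% in all 32851 promoters. A match shows only that the letters are there.

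Of 43 sarcomere and contraction genes 34 rose and 1 fell (median 1.45). *Myl1* (gene 17901) encodes an alkali light chain of fast muscle myosin, and a promoter of it is shown above. It read 6.92, 5.90 and 5.09 at E10.5 and 10.87, 11.33 and 11.65 at E12.5, a rise of 5.31 (SE 0.46, adjusted p = 2.49e-07). *Tnnc1*, the troponin C of slow and cardiac muscle, went from 6.49, 4.98 and 4.66 to 9.44, 9.94 and 10.41. *Actn2*, the alpha-actinin of the Z disc, went from 6.16, 5.95 and 5.41 to 9.73, 10.27 and 10.87. In each of these genes E10.5 replicate 1 was the highest of its stage and E12.5 replicate 3 the highest of all. *Casq2*, calsequestrin, which stores calcium, rose by 4.22 (SE 0.41) and *Acta1*, the skeletal muscle actin, by 2.98 (SE 0.34). *Tnnt2*, a troponin T, rose by 3.15 (SE 0.28), *Atp2a1*, the calcium pump of fast fibres, by 2.80 (SE 0.29) and *Mylpf*, the fast regulatory light chain, by 2.34 (SE 0.31). Some of these genes varied within E10.5 FBs in culture as well. Over the 9 cultured E10.5 arrays *Myl1* ranged from 5.78 to 9.42 and *Tnnc1* from 5.10 to 8.69, still below their fresh E12.5 values, whereas *Kera* ranged from 3.85 to 5.89 and *Gdf5* from 4.96 to 5.74.

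The regulators that make muscle cells moved in 2 directions. Of 22 muscle progenitor and myogenic genes 13 rose and 3 fell (median 0.71). *Pax3*, which marks muscle precursors on their way into the limb, read 8.21, 7.79 and 7.98 at E10.5 and 5.53, 5.54 and 5.72 at E12.5, a difference of -2.40 (SE 0.25, adjusted p = 1.85e-06). *Myod1*, a determination factor, went from 7.02, 6.37 and 6.67 to 9.15, 9.65 and 10, and *Myog*, myogenin, the factor of differentiation, from 7.85, 5.62 and 5.96 to 9.33, 9.81 and 10.13. The stages did not overlap in *Pax3*, *Myod1* or *Myog*, as in 47.3% of all genes. *Mymk*, the membrane protein that drives myoblast fusion, rose by 3.62 (SE 0.40). *Musk* and the acetylcholine receptor subunits *Chrna1*, *Chrng* and *Chrnd*, which build the nerve-muscle synapse, rose by 2.40 (SE 0.22), 2.43 (SE 0.29), 2.37 (SE 0.28) and 1.10 (SE 0.15). *Six4*, a homeodomain factor of muscle precursors, fell by 0.61 (SE 0.11).

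**Figure D3:**
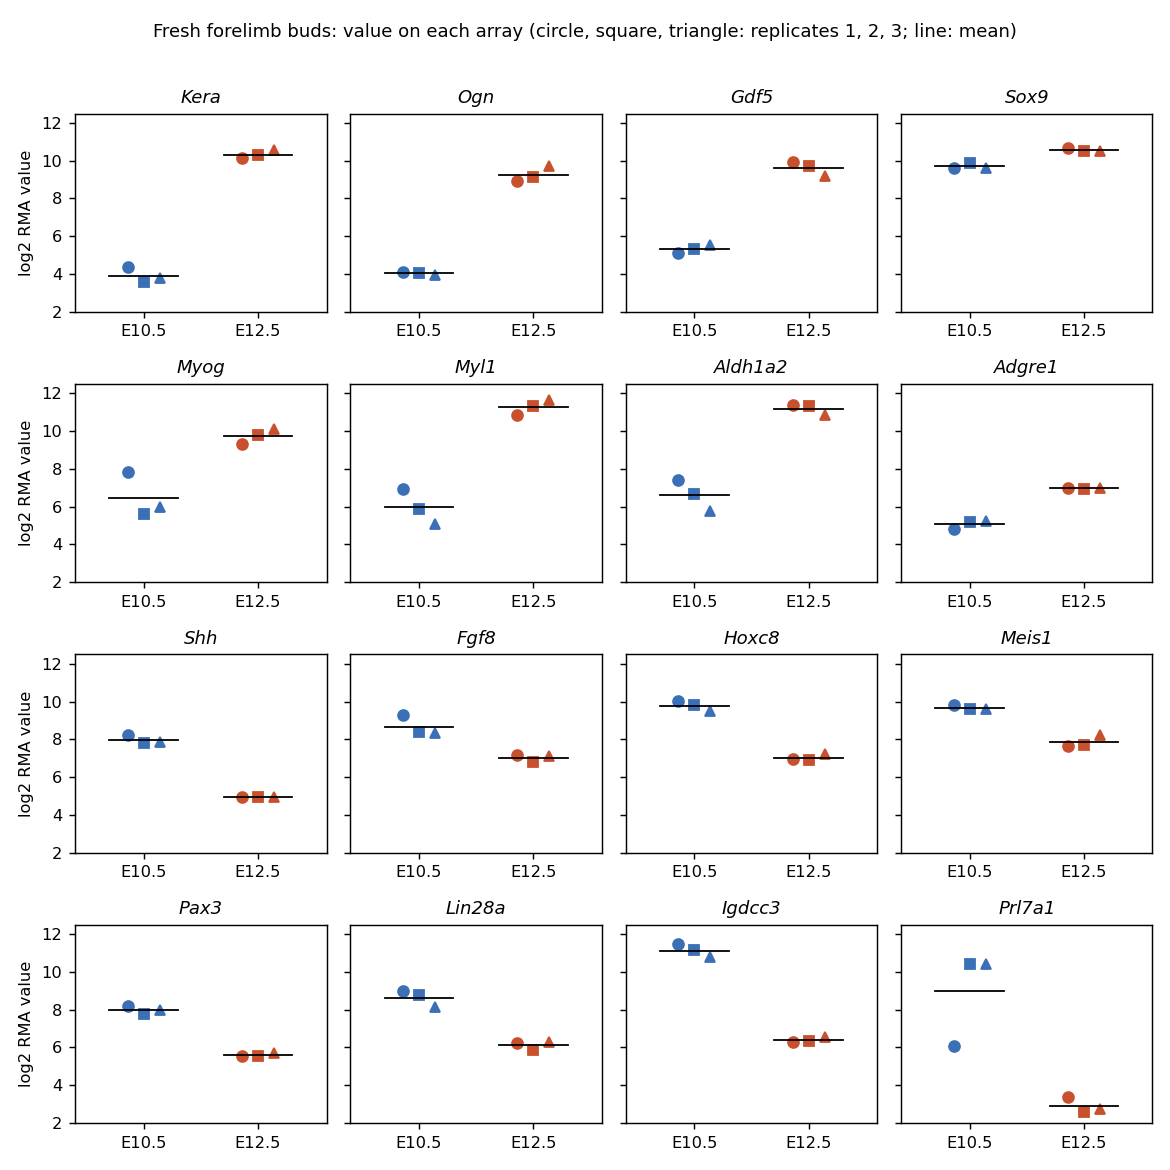
Each panel shows the log2 value of 1 gene on the 3 fresh E10.5 arrays (blue) and the 3 fresh E12.5 arrays (red), with circles, squares and triangles for replicates 1, 2 and 3 and a line at the mean. Values of *Kera* (4.39, 3.55 and 3.81, then 10.14, 10.28 and 10.56) and *Shh* (8.22, 7.79 and 7.85, then 4.92, 4.92 and 4.94) lie in separate ranges at the 2 stages, and *Prl7a1* is high in E10.5 replicates 2 and 3 only.

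Several patterning genes of the early bud were lower at E12.5. *Shh* (gene 20423), the ligand of the posterior signalling zone, read 8.22, 7.79 and 7.85 at E10.5 and 4.92, 4.92 and 4.94 at E12.5. It fell by 3.03 (SE 0.32, adjusted p = 2.4e-06), which is 8.15-fold, and fell by 3.29 when E10.5 was represented by replicate 1 alone. Over the 9 cultured E10.5 arrays *Shh* ranged from 4.93 to 8.52, down to its fresh E12.5 level. Of 13 genes of the hedgehog pathway 3 rose and 2 fell (median -0.10). These are 23.1% and 15.4%, against 19.7% and 7.39% of all genes. *Hhip*, an inhibitor that binds hedgehog, rose by 1.39 (SE 0.14), and *Boc*, a coreceptor, by 1.23 (SE 0.11). *Smo*, the signal transducer, fell by 0.54 (SE 0.14). 2 target genes of the pathway did not pass the test. *Gli1* read 7.85, 7.66 and 7.46 at E10.5 and 7.82, 7.94 and 7.54 at E12.5, and *Ptch1*, the receptor, 10.03, 10.27 and 10.08 and then 9.94, 9.79 and 9.61 (adjusted p = 0.679 and 0.0573). The 95% interval of the *Gli1* difference was -0.23 to 0.45, and that of *Ptch1* -0.62 to -0.07. *Ptch1* passed as a fall without E12.5 replicate 1 (-0.43, adjusted p = 0.0416) and in each other scaling (-0.58, adjusted p = 0.00267, with a common median).

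More genes of the apical ridge fell than rose. Of 15 ridge and ectoderm patterning genes 8 fell and 3 rose (median -0.46). *Fgf8*, expressed all along the ridge, read 9.27, 8.36 and 8.32 at E10.5 and 7.14, 6.80 and 7.13 at E12.5, a difference of -1.62 (SE 0.19, adjusted p = 7.96e-06). Over the 9 cultured E10.5 arrays it ranged from 6.50 to 8.47, a range that includes its fresh E12.5 values. *Fgf4*, of the posterior ridge, fell by 1.07 (SE 0.16). *Sp6* and *Sp8*, zinc finger factors that the ridge needs, fell by 1.61 (SE 0.28) and 1.51 (SE 0.23), and *Rspo2*, an R-spondin that boosts Wnt signalling there, by 1.39 (SE 0.17). *Dlx5* and *Msx2*, homeobox genes of both ridge and mesenchyme, rose by 1.68 (SE 0.12) and 0.89 (SE 0.15), and *Fgf9* by 1.45 (SE 0.18). In a list of 16 genes of Fgf feedback and receptors 4 rose and 5 fell (median -0.15), and without E10.5 replicates 2 and 3, 3 rose and 1 fell. *Etv4* and *Etv5*, Ets factors that are targets of Fgf signalling, fell by 1.10 (SE 0.24) and 0.76 (SE 0.19). Without those replicates *Etv4* still passed (-1.51, adjusted p = 0.00436) and *Etv5* did not (-0.81, adjusted p = 0.0634). Ligands of the mesenchyme were among those that rose, *Fgf7* by 2.78 (SE 0.24) from values of 3.45 to 3.80, and *Fgf18* by 1.79 (SE 0.29).

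Most Hox genes of the anterior part of the clusters fell, and posterior ones went both ways. The anterior Hox list reaches past number 8, to *Hoxc10*. Of its 22 genes 15 fell and none rose (median -0.91). The median was -1.23 without E10.5 replicates 2 and 3, where fewer passed. *Hoxc8* (gene 15426) read 10.02, 9.82 and 9.48 at E10.5 and 6.94, 6.89 and 7.21 at E12.5, a difference of -2.76 (SE 0.35, adjusted p = 1.33e-05). *Hoxb3* fell by 1.92 (SE 0.21), *Hoxb5* by 1.52 (SE 0.28), *Hoxc5* fell by 1.45 (SE 0.29), *Hoxb2* fell by 1.41 (SE 0.24) and *Hoxa7* fell by 1.13 (SE 0.17). In the posterior list of 7 genes, which leaves out *Hoxc12* and *Hoxc13*, 1 rose and 2 fell (median -0.25). *Hoxd13*, the gene of the digits, read 9.70, 9.64 and 10.19 at E10.5 and 11.46, 11.40 and 11.02 at E12.5, a rise of 1.45 (SE 0.38, adjusted p = 0.00815). *Hoxd9*, an upper arm gene, fell by 0.74 (SE 0.19), and *Hoxd11*, of the forearm, by 0.65 (SE 0.23, adjusted p = 0.0422). The *Hoxd11* call was lost without any 1 of the E10.5 replicates (adjusted p = 0.0904, 0.0876 and 0.0858) and without E12.5 replicate 2 or 3 (adjusted p = 0.114 and 0.13), and that of *Hoxd13* without E10.5 replicates 2 and 3 together (a rise of 1.60, adjusted p = 0.0591). Over all 32 measured Hox genes, 14 of the 19 with numbers 1 to 8 fell and none rose, and of the 13 with numbers 9 to 13, 3 rose and 3 fell. The other 2 that rose, singled out after their values were seen, were *Hoxc12* (5.44, 5.71 and 6.08 at E10.5 and 8.30, 8.36 and 8.83 at E12.5, a rise of 2.75, SE 0.32) and *Hoxc13* (a rise of 0.73, SE 0.21), neighbours at the end of the Hoxc cluster. *Hoxc13* no longer passed without E10.5 replicate 1 (0.68, adjusted p = 0.0565), E10.5 replicate 2 (0.67, adjusted p = 0.0627) or E12.5 replicate 3 (0.49, adjusted p = 0.11).

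**Figure D4:**
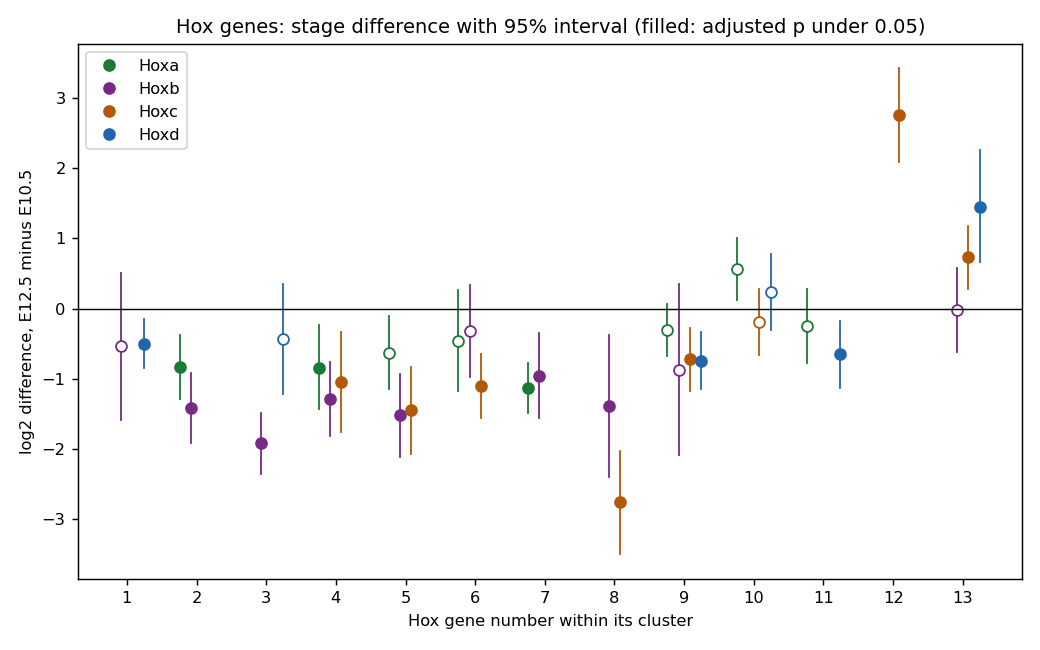
Points give the log2 difference of E12.5 minus E10.5 for each of the 32 measured Hox genes, against the gene's number within its cluster, with vertical lines for the 95% interval of the fit, colours for the 4 clusters and filled points for an adjusted p under 0.05. All 19 genes with numbers 1 to 8 lie below 0, with *Hoxc8* lowest (-2.76), and *Hoxc12* (2.75) and *Hoxd13* (1.45) lie highest.

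Among proximal genes more fell than rose. Of 17 factors of the proximal limb and shoulder girdle 6 fell and 2 rose (median -0.23). *Meis1* and *Meis2*, homeodomain factors of the stylopod, went from 9.79, 9.59 and 9.61 to 7.62, 7.71 and 8.25, and from 11.53, 11.42 and 11.25 to 9.93, 10.11 and 10.56. *Irx3*, an Iroquois factor, fell by 1.66 (SE 0.18) and *Pax1*, a gene of the girdle, by 2.30 (SE 0.33). *Pax9*, its close relative, went the other way, from 5.59, 5.98 and 5.96 to 7.68, 8.64 and 8.76. *Prrx1*, a gene of limb mesenchyme at large, read 11.90 to 12 at E10.5 and 12.02 to 12.17 at E12.5 and did not pass (adjusted p = 0.524). Of 15 factors of the distal mesenchyme 6 fell and 2 rose (median -0.24). Their median was -0.16 without E10.5 replicates 2 and 3, where fewer passed. *Sall4*, a zinc finger factor, read 9.59, 9.36 and 9.11 at E10.5 and 7.07, 6.43 and 6.88 at E12.5, and *Tfap2c*, an AP-2 factor, fell by 1.92 (SE 0.32). *Lhx2* and *Lhx9*, LIM factors of the growing tip, differed by 0.06 and 0.29 and did not pass (adjusted p = 0.875 and 0.367). Of 12 T-box genes 5 rose and 1 fell (median 0.33, and 0.10 with a common median). *Tbx5*, the gene of forelimb identity, rose by 0.80 (SE 0.13) from 10.37, 10.53 and 10.66 to 11.31, 11.35 and 11.31. *Tbx4*, its hindlimb relative, rose by 1.04 (SE 0.17) and *Tbx1*, a gene of pharyngeal and muscle development, by 0.89 (SE 0.16). *Tbx3*, of the limb margins, fell by 0.55 (SE 0.16). Without E10.5 replicates 2 and 3 neither *Tbx1* (0.47, adjusted p = 0.0701) nor *Tbx3* (-0.59, adjusted p = 0.0963) passed.

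Several signals of the later bud rose. Of 28 genes of the Bmp and Gdf pathway 15 rose and 1 fell (median 0.51). Besides *Gdf5* these included *Gdf10* (a rise of 2.61, SE 0.24), *Bmp5* (1.32, SE 0.13) and *Mstn*, myostatin, which holds back muscle growth (2.11, SE 0.33). The antagonist *Nog*, noggin, rose by 1.78 (SE 0.40), from 4.56 to 4.69 at E10.5 to 6.03 to 6.80 at E12.5, and the receptor *Bmpr1b*, needed in digit cartilage, by 1.43 (SE 0.14). *Id1*, a target of Bmp signalling, rose by 1.12 (SE 0.19). Without E10.5 replicates 2 and 3 the difference was 1.81 for *Nog* and 0.63 for *Id1*, and neither passed. The *Nog* difference thus did not shrink. The 1 member that fell, *Acvr2b*, an activin receptor, did so by 1.20 (SE 0.24). Of 33 Wnt genes 8 rose and 7 fell (median -0.01). These are 24.2% and 21.2%, against 19.7% and 7.39% of all genes. *Dkk2*, an inhibitor of Wnt receptors, rose by 2.75 (SE 0.16), from 7.23, 7.02 and 7.25 to 9.83, 9.91 and 10.02, *Wif1*, which binds Wnt ligands, by 1.93 (SE 0.17), and *Lgr5*, a receptor for R-spondins, by 1.98 (SE 0.23). *Wnt5a*, the ligand of distal outgrowth, rose by 0.90 (SE 0.17). *Rspo4*, an R-spondin, read 8.33, 8.06 and 7.73 at E10.5 and 5.45, 4.32 and 5.44 at E12.5, and *Sfrp1*, a secreted Wnt antagonist, fell by 1.65 (SE 0.24). *Sfrp4*, its relative, was high in E10.5 replicates 2 and 3 only (5.49, 8.97 and 9.0, against 4.27 to 4.78 at E12.5), and without these its difference was -0.95 (adjusted p = 0.396).

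Of 15 genes of retinoic acid metabolism and response 5 rose and 2 fell (median 0.14, -0.09 with a common median). *Aldh1a2*, an enzyme of retinoic acid synthesis in trunk mesoderm and between the digits, read 7.39, 6.65 and 5.78 at E10.5 and 11.38, 11.34 and 10.84 at E12.5, a rise of 4.58 (SE 0.30, adjusted p = 7.68e-09). The E10.5 level is that of fresh FBs only, since the 9 cultured E10.5 arrays read 10.09 to 10.93. *Rxrg*, a retinoid receptor, rose by 3.37 (SE 0.21), *Aldh1a3*, another enzyme of the family, by 1.73 (SE 0.20) and *Rdh10*, which makes retinal, by 0.95 (SE 0.14). *Cyp26b1*, which breaks retinoic acid down in the distal limb, read 8.98, 9.13 and 8.86 at E10.5 and 9.39, 8.75 and 8.57 at E12.5 (adjusted p = 0.836). *Crabp2*, a binding protein, fell by 0.56 (SE 0.14). Mesothelium markers, which overlap with this list, were mixed. Of 17 measured 4 rose and 7 fell (median -0.46), and 4 rose and 4 fell without E10.5 replicates 2 and 3 (median -0.09). *Upk1b*, a uroplakin, rose by 1.61 (SE 0.27) while *Wt1*, the Wilms tumour factor, fell by 1.77 (SE 0.26), with a difference of -0.86 without those replicates that still passed, and *Gata5* by 1.15 (SE 0.25). The mean of this list was 6.77 to 7.04 at E10.5 and 6.94 to 7.03 at E12.5. In the group of apoptosis and interdigit genes (17 measured) 6 rose and 1 fell (median 0.15, -0.08 with a common median). *Bcl2*, which protects from cell death, rose by 1.31 (SE 0.09), and *Apaf1*, which activates caspases, by 0.54 (SE 0.10), though by 0.29 (adjusted p = 0.0634) with a common median of the tested genes. *Tgm2*, transglutaminase, read 6.92, 10.13 and 9.88 at E10.5 and 5.61 to 6.37 at E12.5, in the order of the placenta and decidua markers, and fell by 0.85 without E10.5 replicates 2 and 3 (adjusted p = 0.23).

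Most genes of early embryonic growth were lower at E12.5. Of 15 genes that mark early embryonic cells, grouped around *Lin28a* and *Hmga2*, 11 fell and none rose (median -0.76). Their median was -0.74 without E10.5 replicates 2 and 3, where fewer passed. *Lin28a*, which blocks the maturation of let-7 microRNAs, read 9.01, 8.78 and 8.13 at E10.5 and 6.24, 5.86 and 6.29 at E12.5, a difference of -2.51 (SE 0.21, adjusted p = 1.45e-07). *Hmga2*, a chromatin protein and a let-7 target, fell by 0.96 (SE 0.11) from 12.60, 12.43 and 12.40 to 11.49, 11.44 and 11.62. *Arid3a* and *Arid3b*, AT-rich DNA binding proteins, fell by 1.30 (SE 0.16) and 1.57 (SE 0.19), *Igf2bp1*, an RNA binding protein, by 0.76 (SE 0.10) and *Dnmt3b*, a DNA methyltransferase of early embryos, by 0.85 (SE 0.13). The stages did not overlap in any of the 11, but these had been picked by passing the test, so this adds no support. Of all genes, 17.0% had every E12.5 value below every E10.5 value. Of 31 genes of ribosome biogenesis 16 fell and none rose (median -0.29). Their median was -0.39 without E10.5 replicates 2 and 3, where fewer passed. *Nhp2*, of the small nucleolar particles, fell by 0.83 (SE 0.16), *Mybbp1a*, a nucleolar protein, by 0.68 (SE 0.13) and *Gnl3*, nucleostemin, by 0.62 (SE 0.12).

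Genes of the cell cycle machinery passed less often than all genes (20.9% of replication and 21.1% of mitosis genes, against 27.1%). Falls were more frequent, however, at 18.6% and 13.2%, against 7.39% of all genes. Of 43 DNA replication genes 8 fell and 1 rose (median -0.14), and *Ccne1*, cyclin E, fell by 0.70 (SE 0.08) and *Uhrf1*, which maintains DNA methylation at the fork, by 0.47 (SE 0.09). Of 38 mitosis genes 5 fell and 3 rose (median -0.05), and *Mad2l1*, a checkpoint protein of the spindle, fell by 0.39 (SE 0.09). Under the common median 22 replication genes and 17 mitosis genes were lower and none higher. Before any rescaling a larger share of cell cycle inhibitors and D cyclins passed (52.4%). Of 21 measured 10 rose and 1 fell (median 0.43), and with a common median 7 rose and 4 fell (median 0.20). *Gas2*, a growth arrest gene, read 8.70, 8.52 and 8.77 at E10.5 and 10.52, 10.80 and 10.78 at E12.5. *Rb1* and *Rbl2*, retinoblastoma proteins, rose by 1.33 (SE 0.23) and 1.24 (SE 0.15), and *Cdkn1b*, the kinase inhibitor p27, by 0.91 (SE 0.16). *Cdk6*, the kinase that D cyclins activate, fell by 0.55 (SE 0.13), and by 0.40 without E10.5 replicates 2 and 3 (adjusted p = 0.159). Of 26 imprinted and Igf genes 7 rose and 3 fell (median 0.16, -0.08 with a common median). *Igf2*, the foetal growth factor, read 13.13 to 13.16 at E10.5 and 13.03 to 13.18 at E12.5, and the neighbouring *H19* 13.38 to 13.54 and 13.42 to 13.59. Neither passed, and both are near the top of the scale, though *Igf2* passed as a fall (-0.28, adjusted p = 0.0451) with a common median. *Plagl1*, an imprinted zinc finger factor, rose by 1.41 (SE 0.21) and *Igfbp3*, an Igf binding protein, by 1.37 (SE 0.15), while *Peg3* fell by 0.86 (SE 0.11). Of 27 genes of glycolysis and hypoxia 5 rose and 4 fell (18.5% and 14.8%, against 19.7% and 7.39% of all genes). Their median was 0.04, and negative in each other scaling and without E10.5 replicates 2 and 3. Of 26 lysosome genes 6 rose (23.1%, against 19.7% of all genes) and none fell. The lysosome median was 0.15, and -0.08 with a common median, where 1 rose and 6 fell.

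**Figure D5:**
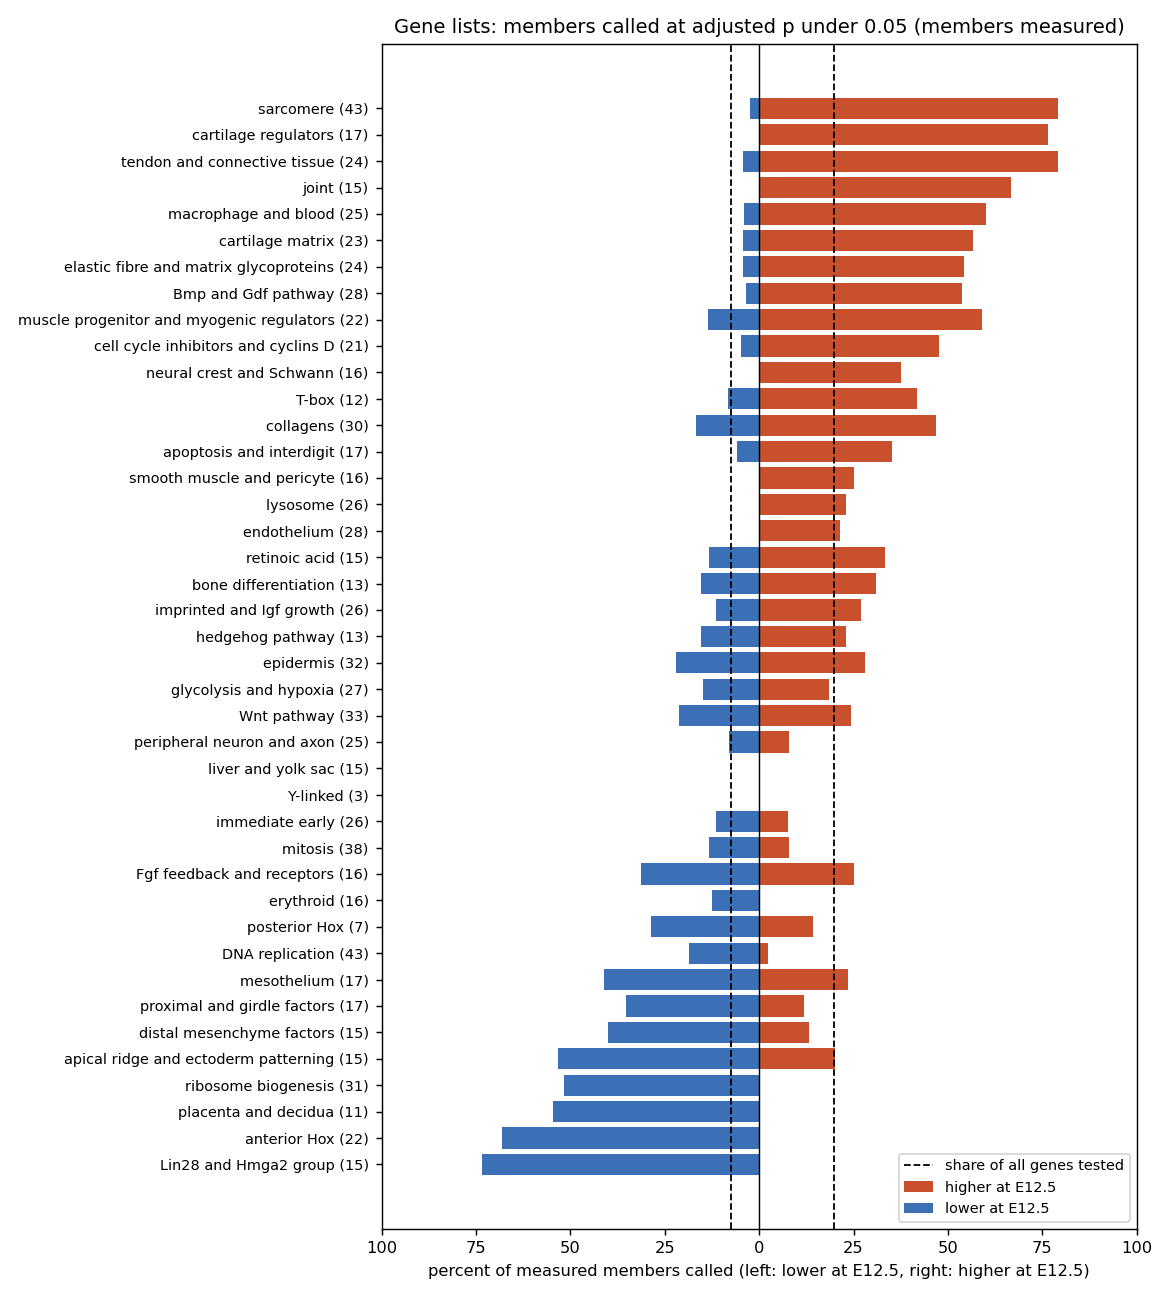
Bars give, for each of the 41 gene lists, the percent of measured members higher (red, to the right) and lower (blue, to the left) at E12.5 at an adjusted p under 0.05, with the number of measured members in brackets and dashed lines at the shares of all genes tested (19.7% higher and 7.39% lower). Sarcomere, tendon and connective tissue and cartilage regulators lie at the top (34 of 43, 19 of 24 and 13 of 17 higher), and the *Lin28a* and *Hmga2* group at the bottom (11 of 15 lower).

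Most markers of macrophages rose, and so did some of nerve-associated cells. Of 25 markers of macrophages and other blood cells 15 rose and 1 fell (median 0.79). *Adgre1*, a surface receptor that defines macrophages, read 4.80, 5.20 and 5.26 at E10.5 and 7.01, 6.91 and 6.96 at E12.5, a rise of 1.87 (SE 0.18, adjusted p = 8.61e-07). *Ctss*, cathepsin S, rose by 1.73 (SE 0.18), *Mrc1*, the mannose receptor, by 1.49 (SE 0.21), *Cx3cr1*, a chemokine receptor, by 1.16 (SE 0.21) and *Ppbp* and *Pf4*, proteins of platelets and their precursors, by 1.69 (SE 0.33) and 1.05 (SE 0.20). Of 16 neural crest and Schwann cell markers 6 rose and none fell (median 0.29), and with a common median 5 rose and 2 fell (median 0.06). *Fabp7*, a fatty acid binding protein of glial precursors, read 5.01, 5.33 and 4.59 at E10.5 and 8.59, 8.75 and 9.35 at E12.5, and did not pass without E10.5 replicates 2 and 3 (3.88, adjusted p = 0.0513). *Ednrb*, an endothelin receptor, rose by 2.22 (SE 0.37), *Gfra3*, a receptor of nerve-associated cells, by 1.74 (SE 0.17), and *Sox10*, the factor that defines the glial lineage, by 0.95 (SE 0.15). Of 25 markers of peripheral neurons and axons 2 rose and 2 fell (median -0.13), and *Ntrk2*, a neurotrophin receptor, rose by 2.35 (SE 0.19) while *Th*, an enzyme of catecholamine synthesis, fell by 1.17 (SE 0.34) and did not pass without E10.5 replicates 2 and 3 (-1.30, adjusted p = 0.0882).

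Of 28 endothelial markers 6 rose and none fell, close to the share of all genes (median 0.15, -0.08 with a common median). *Prox1*, the factor of lymphatic vessels, read 4.68, 5.10 and 4.86 at E10.5 and 7.45, 6.82 and 7.26 at E12.5. *Gja5*, a connexin of arteries, rose by 1.80 (SE 0.30) and *Tek*, the angiopoietin receptor, by 0.90 (SE 0.16). Of 16 smooth muscle and pericyte genes 4 rose and none fell (median -0.07, and 0.07 without E10.5 replicates 2 and 3), and with a common median 3 rose and 3 fell. Among the 4 was *Acta2*, the smooth muscle actin, which rose by 3.33 (SE 0.22), from 8.82, 8.65 and 8.21 to 11.64, 11.85 and 12.19. The 9 cultured E10.5 arrays read 10.28 to 11.87 for *Acta2*. Of 16 erythroid genes 2 fell (median -0.44), *Hemgn*, a nuclear protein of red cell precursors, which read 7.74, 9.90 and 10.51 at E10.5 and 7.09 to 7.56 at E12.5, and *Tfrc*, the transferrin receptor, by 0.82 (SE 0.18). The erythroid median was 0.74 without E10.5 replicates 2 and 3, and none then passed. *Hemgn* was also lost without E10.5 replicate 3 alone (-1.52, adjusted p = 0.0581). Of 26 immediate early genes 2 rose and 3 fell (median -0.15). With a common median 2 rose and 10 fell, and without E10.5 replicates 2 and 3 the median was 0.02, with 4 higher and 2 lower. *Jun* rose by 1.18 (SE 0.16), and *Junb* fell by 0.69 (SE 0.15).

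Keratins of the ectoderm moved both ways. Of 32 epidermal genes 9 rose and 7 fell (median -0.07). *Krt14*, a keratin of the basal layer of stratified skin, read 6.65, 6.70 and 6.95 at E10.5 and 9.43, 9.16 and 9.72 at E12.5. *Krt15* and *Krt17*, also of stratifying skin, rose by 2.94 (SE 0.16) and 2.76 (SE 0.26), and the desmosomal cadherin *Dsc3* by 2.55 (SE 0.28). *Krt18* and *Krt19*, keratins of simple epithelia, fell by 2.57 (SE 0.29) and 1.66 (SE 0.24). *Krt18* read 9.27, 10.39 and 10.24 at E10.5, higher in replicates 2 and 3, and 7.45, 6.86 and 7.86 at E12.5. The claudins *Cldn6* and *Cldn7*, of tight junctions, differed by -1.31 (SE 0.23) and -1.17 (SE 0.21).

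The genes with the largest falls over the whole array were, with 1 exception among the first 5, those that were high in E10.5 replicates 2 and 3. *Prl7a1*, a prolactin-like hormone of the placenta, read 6.08, 10.42 and 10.40 at E10.5 and 3.35, 2.59 and 2.74 at E12.5, a difference of -6.07 (SE 0.98, adjusted p = 0.000172). *Erv3*, an endogenous retroviral gene, read 9.37, 13.19 and 12.78 and then 7.82, 4.75 and 5.69, and *Gzmd*, a granzyme, 4.14, 9.39 and 9.56 and then 3.69, 2.45 and 2.80. *Cyp11a1* and *Star*, which start steroid hormone synthesis, fell by 4.16 (SE 0.90) and 3.62 (SE 0.75), with the same order of the E10.5 replicates. Without replicates 2 and 3 the differences of *Gzmd*, *Cyp11a1* and *Star* were -1.15, -1.25 and -1.16 and did not pass (adjusted p = 0.417, 0.346 and 0.287). Of the 15 genes with the largest falls, 5 still passed without replicates 2 and 3. Of the 215 genes that passed and were at least 2-fold lower, 78 had an SD over 1 among the E10.5 arrays. Of the 11 placenta and decidua markers 6 fell (median -1.14), against 1 without those arrays (median -0.15). The part of such tissue in the falls was not tested. The exception was *Igdcc3* (gene 19289, chromosome 9 from 65141154 to 65187031), an immunoglobulin superfamily protein of early embryos, which read 11.49, 11.14 and 10.77 at E10.5 and 6.29, 6.33 and 6.56 at E12.5. It fell by 4.74 (SE 0.18, adjusted p = 1.52e-11), which is 26.7-fold, and fell by 5.10 with E10.5 replicate 1 alone. Ranked by the fall from that array alone, among genes that passed in both fits with no overlap of the stages, *Igdcc3* came first, *Shh* was among the 5 first, and *Rspo4*, *Hoxc8*, *Lin28a*, *Sall4*, *Pax3* and *Hoxb3* were among the 15 first, beside *Prl8a2*, *Erv3* and *Prl7a1*. This ranking was chosen after the values were seen.

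Of the 15 genes with the largest rises, 4 were in none of the lists. *Slitrk1*, a membrane protein of neurons, read 4.47, 3.43 and 2.99 at E10.5 and 7.25, 8.32 and 8.86 at E12.5. *Atp6v1g3*, a subunit of the vacuolar proton pump, went from 4.09, 4.67 and 4.18 to 8.68, 8.48 and 8.31, *Palmd*, palmdelphin, from 6.12, 5.24 and 4.74 to 8.92, 9.42 and 9.64, and *Rtl3*, a gene derived from a retrotransposon, from 4.84, 5.12 and 5.45 to 9.07, 8.84 and 9.03. The 15 were taken from genes that passed with no overlap of the stages, so the separation in these 4 adds no support.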

How the data were processed

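Total RNA of each FB sample (200 ng, RNeasy Mini) had been hybridized to Affymetrix Mouse Exon 1.0 ST arrays. The deposited values are log2 expression values that the authors made with the RMA method in Affymetrix Expression Console, 1 per transcript cluster. The software version and the genome build are not given in the sources used here. They were used as deposited. Of 23332 clusters, 14996 name 1 gene, 1019 several and 7317 none. For the 135 genes with more than 1 cluster, the one with the highest mean was taken, which left 14860 genes. Each was fitted with limma 3.58.1 in R 4.3.3, in a model that gives all 7 groups of the 21 arrays their own mean (14 residual degrees of freedom), the contrast of fresh E12.5 minus fresh E10.5 FBs, eBayes and Benjamini-Hochberg adjustment over all genes. No filter on low values was used. All adjusted p are two-sided limma values. The pipeline was tested on simulated data. An exact permutation test of 3 against 3 cannot go below 0.1, so it was not used.

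Samples were grouped by GEO's labels. The labels call the replicates biological but do not tell which embryos they came from, so p-values measure the spread between these samples, and their number limits the precision. The arrays give no read depth. The members and the 41 gene lists (1051 entries, 878 of them measured) were chosen with earlier results of these data known, and list medians and counts are descriptions. Genes named are the 15 largest rises and falls among genes that passed with no overlap of the stages, list members and genes the study's text names; others are said to be chosen after their values were seen. Coordinates and promoter sequences are from RefSeq (GRCm38.p6), matched by gene ID, and 14805 genes had a position. The alternatives were other scalings, filters, thresholds and moderation, array weights, a replicate block, a placenta and decidua covariate, an ordinary t-test and leaving out arrays. A common median over the tested genes and leaving out E10.5 replicates 2 and 3 together were added after seeing the data.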

Additional observations from a re-analysis of the deposited data

Results flagged for a closer look

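Clusters that name several genes or no gene stood outside the comparison, and some of them passed when all 23332 clusters were fitted together. Of 1019 clusters that name several genes, 117 were higher and 47 lower at E12.5 (11.5% and 4.61%, median difference -0.01). Of 7317 clusters with no gene name, 371 were higher and 138 lower (5.07% and 1.89%, median difference 0.09), at a median log2 value of 4.66. Among the 14996 clusters of 1 gene the shares in that fit were 17.5% and 5.76%, at a median value of 7.45.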

How the results depend on the processing

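The call counts, 4023 genes of which 2925 were higher and 1098 lower, moved with the settings as follows. With a common median 1549 were higher and 3367 lower, and with a common median over the tested genes 1491 and 3628. Genes lower numbered 2498 after quantile normalization, 2180 after cyclic loess and 553 with the placenta and decidua mean as a covariate. Array weights gave 6291 genes, 2213 of them lower. An adjusted p under 0.01 left 2465, 480 of them lower, and a fold of at least 1.5 left 2239, of which 1718 were higher and 521 lower. An ordinary t-test on the 6 arrays gave 668 lower genes at an unadjusted p under 0.01, of 2991 in all. It gave 673 of 3003 after Benjamini-Hochberg adjustment. The study names no test for its arrays. Leaving out 1 array gave 3015 to 3539 genes, 2338 to 2543 higher and 583 to 1003 lower, the lowest count of lower genes being that without E12.5 replicate 2 and the next, 722, that without E10.5 replicate 2. Without E10.5 replicates 2 and 3 there were 2625 genes, 608 of them lower. The cause was not tested. Deviations from the stage means correlated at 0.041, -0.185 and 0.112 between samples of the same replicate number. With 3 arrays per stage this cannot show whether equal numbers pair the samples. With a replicate block 4008 genes passed, 2908 higher and 1100 lower, and 3856 of them were among the 4023.

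Of 204 genes named, 159 kept their direction and their side of the threshold in all 23 alternatives. That number was 198 when 1 array was left out at a time and 201 in the 4 other scalings. Without E10.5 replicates 2 and 3, 21 calls were lost besides that of *Htra3*. *Htra3* (0.48) and *Mfap5* (0.25) turned positive with the placenta and decidua covariate, and *Htra3* (0.18) without E10.5 replicates 2 and 3, none of which passed. Without those arrays *Myog* (1.91), *Krt19* (-1.06), *Wt1* (-0.86), *Crabp2* (-0.90) and *Hoxc5* (-2.24) moved by over 1.5 times and still passed. No detection call per array was used, so how far low values lie above background is unknown.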

Other observations

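The clustered beta protocadherins, adhesion proteins known mainly from neurons, were mostly higher at E12.5. Of 22 measured *Pcdhb* genes 19 were higher and none lower at E12.5, with differences of 0.03 to 2.53 and a median of 1.69. The largest were those of *Pcdhb21* (2.53), *Pcdhb18* (2.43) and *Pcdhb17* (2.42). They lie side by side on chromosome 18 and are close in sequence, so probes may be shared between them, and the genes are not independent measurements. They were singled out after their values were seen.

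Some transcription factors that were in no list also rose, and were chosen in the same way. *Ebf1*, an early B cell factor also known from mesenchyme, read 7.38, 8.01 and 7.84 at E10.5 and 11.22, 11.44 and 11.08 at E12.5. *Ebf3* and *Ebf2* rose by 1.95 and 1.10. *Nfix*, of the same family as *Nfia*, read 5.76, 7.20 and 7.35 and then 10.31, 10.38 and 10.36. *Prtg*, protogenin, of the same immunoglobulin family as *Igdcc3*, fell from 9.20, 8.88 and 8.27 to 6.19, 6.12 and 6.44. Its stages did not overlap, as in 47.3% of all genes.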
